A study of Mus musculus with 2 samples.

Results

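The 10 genes described here belong to the NRF2 pathway, the main transcriptional defence of mammalian cells against oxidants and electrophiles. They were chosen by symbol among the 34097 genes counted, and all 10 were found. They comprise the regulator Nfe2l2, its inhibitor Keap1 and 8 genes that NRF2 is known to induce, namely Hmox1, Gclc, Gclm, Slc7a11, Txnrd1, Srxn1, Prdx1 and Nqo1. Levels were read in 3 classes of cells cut by marker counts: macrophages, T cells and tumour-like cells.

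Single-cell RNA was measured on the 10x Genomics platform in 2 mouse tumours grown from LLC, the Lewis lung carcinoma line, and labelled as lung cancer xenografts. One tumour was a control and the other had a short hairpin RNA (shRNA) to knock down Gfpt2, an enzyme of the hexosamine pathway. The series asks how that knockdown affects immune cells within the tumour and their signalling. Each group had 1 library. The hairpin, the strain, sex and age of the mice, the vector of the control and whether cells of several animals were pooled are not given in the sources used here. No difference between the libraries could therefore be set against a spread between replicates, no test was run, and the 95% intervals given in parentheses cover counting error only. They are exact Poisson intervals for levels and exact Clopper-Pearson intervals for shares.

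NRF2, the protein product of Nfe2l2, is made continuously and is held by KEAP1, which passes it to a ubiquitin ligase for destruction. Oxidants and electrophiles modify cysteines of KEAP1, NRF2 then accumulates without a change in its messenger RNA, and it binds antioxidant response elements together with small MAF proteins. Its targets make glutathione, reduce thioredoxin and peroxiredoxins, and break down haem. In macrophages Hmox1 also responds to haem itself, through the release of the repressor BACH1, and Slc7a11 is a known target of the amino acid stress factor ATF4 as well.

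Promoters of 8 of the 10 genes, all but Hmox1 and Gclc, were matched in RefSeq (assembly GRCm38.p6, 250 bases before to 50 after the start of the gene). The core of the antioxidant response element, searched as TGACNNNGC on both strands, occurred in 5 of the 8, in Gclm, Nfe2l2, Prdx1, Srxn1 and Txnrd1, and in 12.39% of all 32851 promoters of the same length. The 8 genes had 10 promoters, and a gene was counted when any of its promoters matched. The percentages in this paragraph count single promoters, so the 2 measures are not alike. In Srxn1 the match lay after the start. The element known for ATF4, searched as TGATGNAA, occurred in Slc7a11 alone of the 8 and in 3.97% of all promoters. The AP-1 site TGAGTCA, which can overlap the antioxidant response element, occurred in Prdx1 and Srxn1 and in 5.2% of all promoters. The 4 windows below are shown because they hold the core before the start in the 3 target genes Prdx1, Gclm and Txnrd1, and the ATF4 element in the cystine transporter gene. They lie at chr4:116685441-116685499 on the plus strand (Prdx1), chr3:122245398-122245456 on the plus strand (Gclm), chr10:82859089-82859147 on the plus strand (Txnrd1) and chr3:50443628-50443704 on the minus strand (Slc7a11). Capitals mark the match, which in the first 3 is the reverse complement of the core, while Slc7a11 holds the ATF4 element once in each direction.
Prdx1: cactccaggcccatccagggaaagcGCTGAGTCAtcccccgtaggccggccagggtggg
Gclm: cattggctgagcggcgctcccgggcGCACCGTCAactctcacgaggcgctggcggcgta
Txnrd1: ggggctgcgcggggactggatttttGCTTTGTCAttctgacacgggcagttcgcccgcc
Slc7a11: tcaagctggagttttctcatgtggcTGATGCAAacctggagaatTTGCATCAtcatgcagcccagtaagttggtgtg
A match is a description of letters and not a measured binding site.

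The control tumour held 11977 cell barcodes with 165824226 unique molecular identifiers (UMIs, 1 per captured RNA molecule), and the knockdown tumour 12853 barcodes with 138402860 UMIs. After filters 10662 and 11450 cells were kept. The libraries shared 37 barcode sequences. Gfpt2 was read first because it checks the labels: tumour-like cells had 205 UMIs in the control tumour, or 1.99 CPM (1.73 to 2.28), and 57 UMIs in the knockdown tumour, or 0.655 CPM (0.496 to 0.849). CPM counts the UMIs of a gene for every 1000000 UMIs of the same cells. The log2 ratio, knockdown over control here and throughout, was -1.60 (-2.20 to -1.03), where the range is the widest that the pair of intervals allows. Tumour-like cells with at least 2 UMIs of the keratin Krt16, 171 in the control and 50 in the knockdown tumour, held 100 of those control UMIs, and without these cells Gfpt2 was at 1.07 and 0.629 CPM, a log2 ratio of -0.76 (-1.45 to -0.09).

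The classes were set against their markers before the genes were read. Macrophages were cells with at least 10 UMIs of the complement genes C1qa, C1qb and C1qc per 10000, and the rule gave 3857 control and 4392 knockdown cells, with medians of 5421 and 3933.5 UMIs. T cells had at least 2 UMIs of Cd3d, Cd3e and Cd3g (650 and 532 cells, medians of 2775 and 2559 UMIs). Tumour-like cells had no Ptprc, fewer than 5 Lyz2 UMIs per 10000 and at least 5000 UMIs (4959 and 5163 cells, medians of 18744 and 14709 UMIs). Cells meeting more than 1 of these rules, 148 and 178, were left out. All 12 macrophage markers were found in the macrophages and all 12 T cell markers in the T cells of both libraries. Of the 10 markers set for LLC cells, Krt18 and Krt19 were at 0 in the tumour-like cells of the knockdown tumour. Hmga2, a tumour cell marker, was at 220.0 and 218 CPM there, while the 8 fibroblast markers summed to 2713 and 3069 CPM, so these cells are called tumour-like only.

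RNA of several other cell types was higher in the knockdown macrophages taken by the rule, but not of all. Hmga2 was at 29.5 CPM in the control macrophages and 85.1 CPM in the knockdown macrophages, and the collagen gene Col3a1 at 153 and 458 CPM. The T cell markers summed to 16.9 and 30.4 CPM in them, and the fibroblast markers to 304 and 851 CPM. The 10 LLC markers summed to 206 and 278 CPM, and the 9 without Hmga2 to 177 and 193 CPM. The 6 neutrophil markers were lower in the knockdown tumour, at 68.5 and 34.3 CPM, and the 6 monocyte markers were at 156 and 165 CPM. The 6 NK cell markers were at 7.46 and 24.9 CPM. The 6 erythroid markers were higher in the knockdown tumour in every class, at 16.4 and 62.0 CPM in macrophages, 17.0 and 47.5 CPM in C1q-rich cells, 9.05 and 37.8 CPM in T cells and 6.46 and 23.8 CPM in tumour-like cells, and their part in the values of Hmox1 and the haem genes was not tested. Cells with at least 80 C1q UMIs per 10000, called C1q-rich here, made up 84.3% of the control and 69.4% of the knockdown macrophages (3253 and 3049 cells), with Hmga2 at 12.5 and 21.1 CPM and the other 9 LLC markers, among them Cd44, which immune cells also make, at 157 and 149 CPM in sum. Below that level, Scrublet's own doublet threshold marked 35.7% to 47.0% of the knockdown barcodes in each C1q range and none of the control barcodes that had been kept. That threshold is set per library. It marked 1089 control barcodes, fewer than the 1148 already removed by score, so no kept control barcode could be marked. In the knockdown tumour it marked 2808, against 1322 removed, so the libraries cannot be compared by these shares. Levels of the members in macrophages are therefore given both by the rule and in C1q-rich cells, a group chosen after the data were seen. The T cell rule took in some deep barcodes high in Hmga2: 57 control and 43 knockdown cells had fewer than 10 Cd3 UMIs per 10000, medians of 18613 and 15289 UMIs, and Hmga2 at 299.8 and 222 CPM. The other 593 and 489 T cells, called Cd3-rich and also defined after the data were seen, had Hmga2 at 13.1 and 10.0 CPM. The other 9 LLC markers did not separate these groups alike in both libraries, with sums of 307 and 243 CPM in the deep barcodes and 220 and 281 CPM in Cd3-rich T cells. Near the rules' limits, 82 control and 102 knockdown barcodes had 10 to 12 C1q UMIs per 10000 and 93 and 119 had 8 to 10. Cells with exactly 2 Cd3 UMIs numbered 78 and 75.

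**Figure D1:**
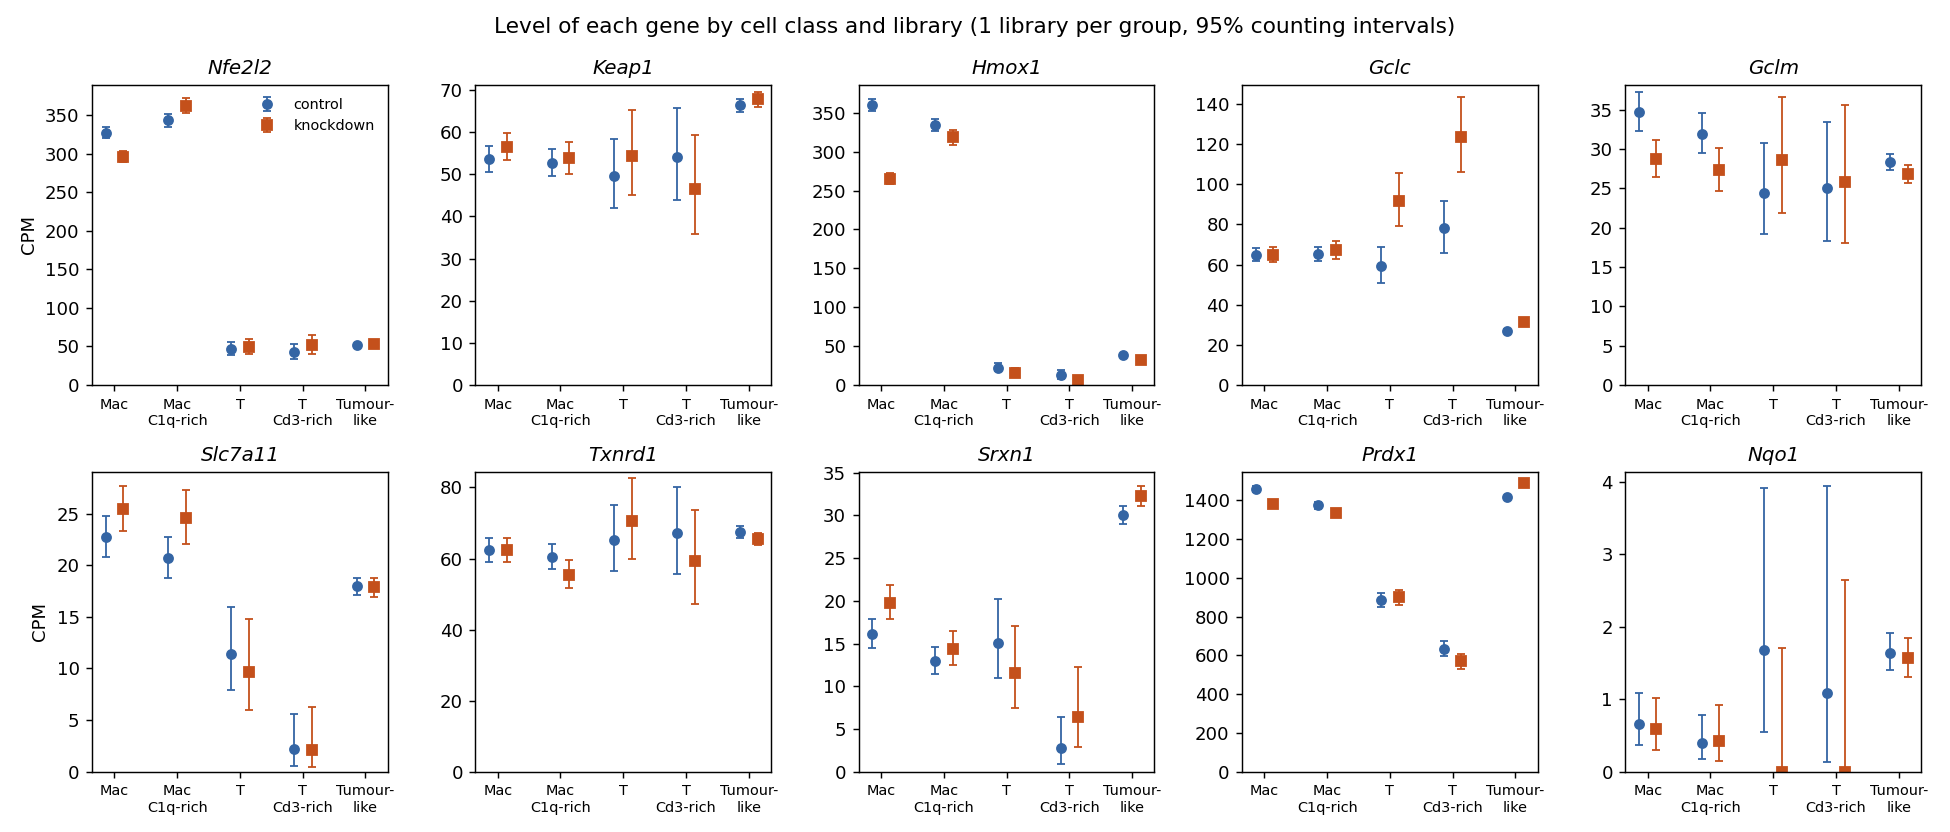
Level of each of the 10 genes in CPM (vertical axes, linear from 0 and scaled separately for each gene) in macrophages (Mac), C1q-rich macrophages, T cells, Cd3-rich T cells and tumour-like cells, with control as circles and knockdown as squares, 1 library each, and bars as 95% Poisson intervals. Nfe2l2 and Hmox1 stood highest in macrophages of both libraries, Gclc lowest in tumour-like cells, Srxn1 highest in tumour-like cells, and the macrophage gap in Hmox1 (359.6 against 265 CPM) was nearly closed in the C1q-rich cells (334 against 318 CPM).

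The regulator stood highest in macrophages of both tumours. Nfe2l2 was at 327 CPM (320 to 335) in macrophages of the control tumour and 296 CPM (289 to 304) in those of the knockdown tumour. In tumour-like cells it was at 51.95 CPM (50.6 to 53.4) and 53.3 CPM (51.8 to 54.9), and in T cells at 46.9 CPM (39.5 to 55.4) and 49.3 CPM (40.4 to 59.6). Macrophages thus exceeded tumour-like cells by a log2 ratio of 2.66 (2.58 to 2.73) in control cells and 2.47 (2.39 to 2.55) in the knockdown tumour, and by 2.72 and 2.76 when only C1q-rich cells were counted. The intervals of T cells and tumour-like cells overlapped in both libraries, so their order by CPM was not resolved. Macrophage and tumour-like RNA, scaled to the Lyz2 and Hmga2 found in T cells by the rule, came to 70.7% and 49.2% of their Nfe2l2. Cd3-rich T cells had 42.6 and 51.5 CPM of Nfe2l2. With every cell thinned to 2000 UMIs, which removes the difference in depth, Nfe2l2 was found in 46.6% and 42.5% of macrophages, 7.01% and 9.48% of T cells and 10.8% and 10.3% of tumour-like cells (shallower cells, 553 and 937 macrophages and 179 and 184 T cells, were left out). The thinned interval of T cells lay below that of tumour-like cells in the control tumour (4.87 to 9.70 against 10.0 to 11.7). In the knockdown tumour these intervals overlapped (6.62 to 13.1 against 9.49 to 11.2). In C1q-rich cells the thinned shares were 47.4% and 47.6%. At full depth the shares in the 3 classes were 70.4% and 59.4%, 15.5% and 16.7%, and 60.2% and 53.5%. Keap1, whose product holds NRF2 in check, followed another order. It was at 53.6 and 56.5 CPM in macrophages, 49.6 and 54.4 CPM in T cells, and 66.4 and 67.8 CPM in tumour-like cells, where it was higher than in macrophages in both libraries, with log2 ratios of macrophages over tumour-like cells of -0.31 (-0.42 to -0.19) and -0.26 (-0.38 to -0.14). C1q-rich macrophages had 52.6 and 53.7 CPM of Keap1, and their log2 ratios to tumour-like cells were -0.33 (-0.46 to -0.21) and -0.33 (-0.48 to -0.19). Cd3-rich T cells had 54.0 and 46.5 CPM of Keap1. In T cells by the rule scaled macrophage and tumour-like RNA came to 76.4% and 49.6% of it.

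A gene is said here to pass the limit between libraries when its log2 ratio was at least 0.32 in size, the range left out 0 and 1 library had at least 100 UMIs of it. Neither regulator passed in any of the 3 classes. In macrophages Nfe2l2 gave a log2 ratio of -0.14 (-0.21 to -0.08) by the rule and 0.08 (0.00 to 0.15) in C1q-rich cells, at 343 and 362 CPM, so its sign turned with the choice of cells. In tumour-like cells the log2 ratio was 0.04 (-0.04 to 0.12) for Nfe2l2 and 0.03 (-0.04 to 0.10) for Keap1. In T cells it was 0.07 (-0.45 to 0.60) for Nfe2l2 and the depth did not resolve a difference.

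Hmox1 encodes haem oxygenase 1, which cleaves haem to biliverdin, carbon monoxide and iron, and macrophages held 62.3% of its UMIs in kept cells of the control tumour and 62.8% in the knockdown tumour. It was at 359.6 CPM (352 to 367) in control and 265 CPM (258 to 272) in knockdown macrophages, against 38.6 and 32.7 CPM in tumour-like cells. Its log2 ratio in macrophages was -0.44 (-0.51 to -0.37). Of the 9 genes with at least 100 UMIs in a library there, Hmox1 alone passed the limit, and it was lower in the knockdown tumour. Over all 10589 genes with that many UMIs, 4.63% passed in that direction and 19.4% in the other, with a median log2 ratio of 0.09 against 0.00 for the 9 members. No member passed 1.5-fold, against 10.2% of genes higher and 1.24% lower. The count rests on which barcodes are taken as macrophages. In C1q-rich cells Hmox1 was at 334 CPM (326 to 342) and 318 CPM (309 to 328), a log2 ratio of -0.07 (-0.15 to 0.01), and no member passed the limit, against 6.24% of 9713 genes higher and 4.14% lower. With Scrublet's own doublet threshold, which marked 9.09% of control and 21.8% of knockdown barcodes, the log2 ratio was -0.20 (-0.27 to -0.12).

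The lower C1q ranges differed more in Hmox1 than the C1q-rich cells did. In the control tumour Hmox1 was at 183, 420.0 and 984 CPM in barcodes with 10 to 20, 20 to 40 and 40 to 80 C1q UMIs per 10000. In the knockdown tumour the same ranges gave 65.5, 115 and 238 CPM, while Hmga2 there was at 252, 238 and 202 CPM and Lyz2, the myeloid lysozyme gene, at 999, 1778 and 3185 CPM. The control range of 40 to 80, with 224 cells, had the highest Hmox1 of any range, together with Prdx1 at 2752 CPM and Hmga2 at only 54.8 CPM. In the knockdown tumour that range held 525 cells. Leaving out those past Scrublet's own threshold left 278 cells with Hmox1 at 526 CPM (474 to 583), Prdx1 at 2137 CPM and Hmga2 at 95.1 CPM. The control range lost no cells by this step. In both libraries the range of 40 to 80 then exceeded the C1q-rich cells in Hmox1. The part that barcodes high in Hmga2 had in the overall difference was not tested.

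**Figure D2:**
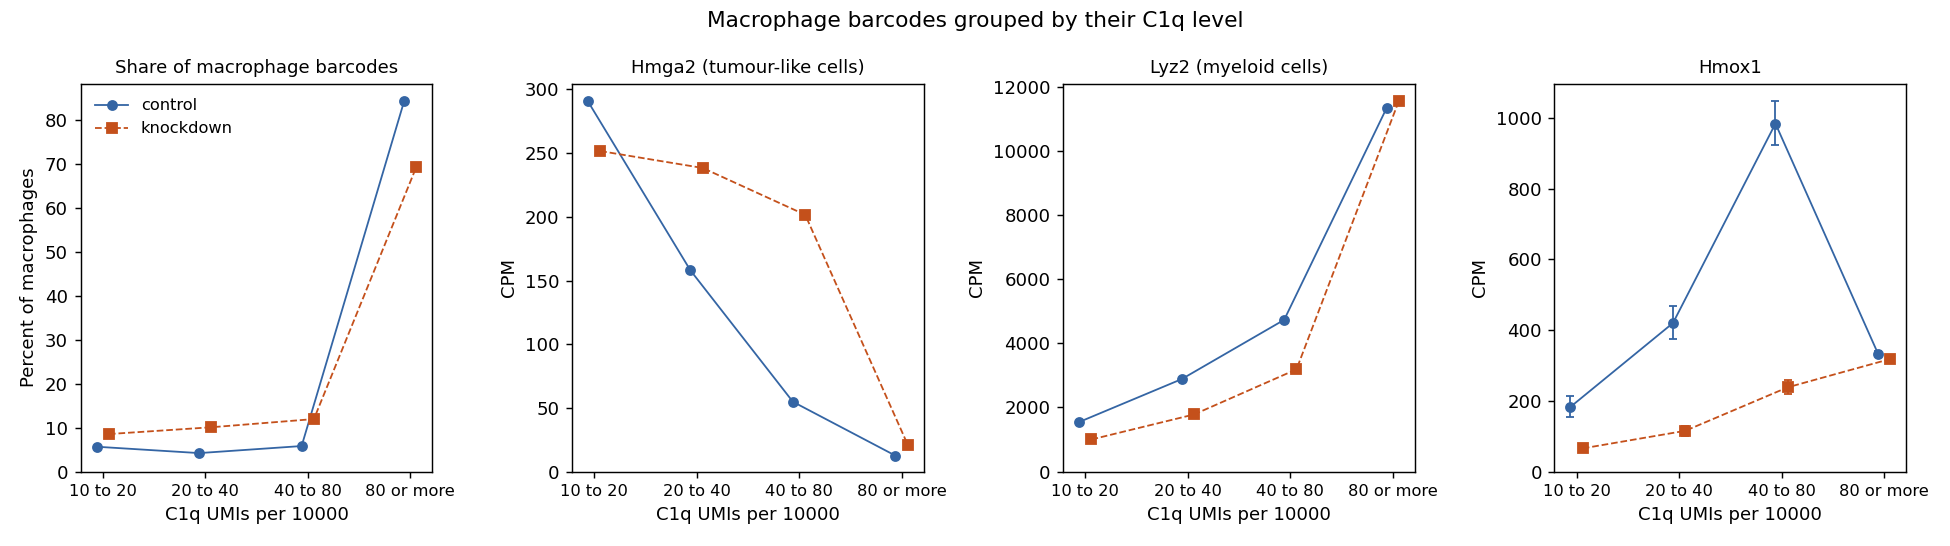
Macrophage barcodes of each library grouped by C1q UMIs per 10000 (horizontal axes), with the share of all macrophages in percent and the levels of Hmga2, Lyz2 and Hmox1 in CPM (vertical axes from 0; circles control, squares knockdown, 1 library each; bars on Hmox1 are 95% Poisson intervals). The libraries nearly met in Hmox1 at 80 or more (334 and 318 CPM) and lay apart below it, where Hmga2 was higher in the knockdown tumour from 20 upwards.

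Hmox1 was concentrated in few cells. In C1q-rich macrophages the 10% of cells with the most Hmox1 UMIs held 68.4% of them in both libraries, and the top 1% held 29.0% and 29.1%. The count per cell ran from 0 to 178 with a median of 1 in the control tumour, and from 0 to 103 with a median of 0 in the knockdown tumour. For Nfe2l2 in the same cells the top 10% held 32.9% and 35.3%. After thinning to 2000 UMIs, 28.6% (27.0 to 30.1) of control and 26.2% (24.8 to 27.7) of knockdown macrophages had a Hmox1 UMI, compared with 48.0% and 37.2% at full depth. In C1q-rich cells the thinned shares were 27.9% (26.4 to 29.6) and 28.8% (27.1 to 30.6). T cells gave 2.34% and 2.30% and tumour-like cells 6.78% and 6.28% after thinning. Cd3-rich T cells had 23 and 9 Hmox1 UMIs, or 12.5 and 6.44 CPM. Scaling the macrophage and tumour-like profiles to the Lyz2 and Hmga2 found in those T cells gave 7.24 and 5.38 CPM of Hmox1, 57.7% and 83.6% of the level measured. The measured interval in the control tumour, 7.95 to 18.8 CPM, left out the scaled value, and that in the knockdown tumour, 2.94 to 12.2 CPM, held it. In T cells by the rule the scaled RNA came to 114% and 104% of the Hmox1 measured. Cells that also met the macrophage or tumour-like rule had been left out of both groups of T cells.

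The genes of glutathione synthesis differed in how far macrophages exceeded tumour-like cells. Gclc and Gclm encode the catalytic and the modifier subunit of glutamate-cysteine ligase, the rate-limiting enzyme, and Slc7a11 the cystine transporter xCT that feeds it. Gclc was at 65.0 and 64.9 CPM in macrophages, against 26.9 and 31.3 CPM in tumour-like cells, and macrophages exceeded tumour-like cells by log2 ratios of 1.27 (1.15 to 1.40) and 1.05 (0.92 to 1.18). T cells had Gclc at 59.3 and 91.8 CPM, and Cd3-rich T cells 78.0 and 124 CPM. Their interval lay above that of macrophages in the knockdown tumour and overlapped it in the control tumour. Gclm was nearly level between macrophages and tumour-like cells, at 34.7 and 28.7 CPM in macrophages and 28.3 and 26.8 CPM in tumour-like cells. Its log2 ratios of macrophages over tumour-like cells were 0.29 (0.14 to 0.45) and 0.10 (-0.08 to 0.28). Between the libraries Gclc gave 0.00 (-0.15 to 0.15) in macrophages and 0.04 in C1q-rich cells, where it was at 65.2 and 67.2 CPM. Gclm gave -0.27 (-0.49 to -0.05) in macrophages by the rule and -0.23 (-0.48 to 0.03) in C1q-rich cells, at 32.0 and 27.3 CPM.

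Slc7a11 was higher in macrophages than in tumour-like cells when macrophages were taken by the rule, at 22.7 CPM (20.8 to 24.7) and 25.4 CPM (23.3 to 27.7) against 17.9 CPM (17.1 to 18.8) and 17.8 CPM (17.0 to 18.8). The log2 ratios of macrophages over tumour-like cells were 0.34 (0.15 to 0.53) and 0.51 (0.31 to 0.71), and for C1q-rich cells, at 20.7 and 24.6 CPM, 0.20 (0.00 to 0.41) and 0.46 (0.23 to 0.69). Between the libraries it gave 0.16 (-0.09 to 0.41) in macrophages and 0.25 (-0.04 to 0.54) in C1q-rich cells, and neither range leaves out 0. The UMIs came from few cells: 314 of 3857 control and 327 of 4392 knockdown macrophages had any, shares of 8.14% and 7.45%, and in C1q-rich cells the top 1% of cells held 37.9% and 42.8% of the Slc7a11 UMIs. After thinning to 2000 UMIs the shares were 3.48% and 3.91% of macrophages, 3.19% and 3.54% of C1q-rich macrophages and 3.95% and 3.82% of tumour-like cells, against 0.637% and 0.862% of T cells.

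**Figure D3:**
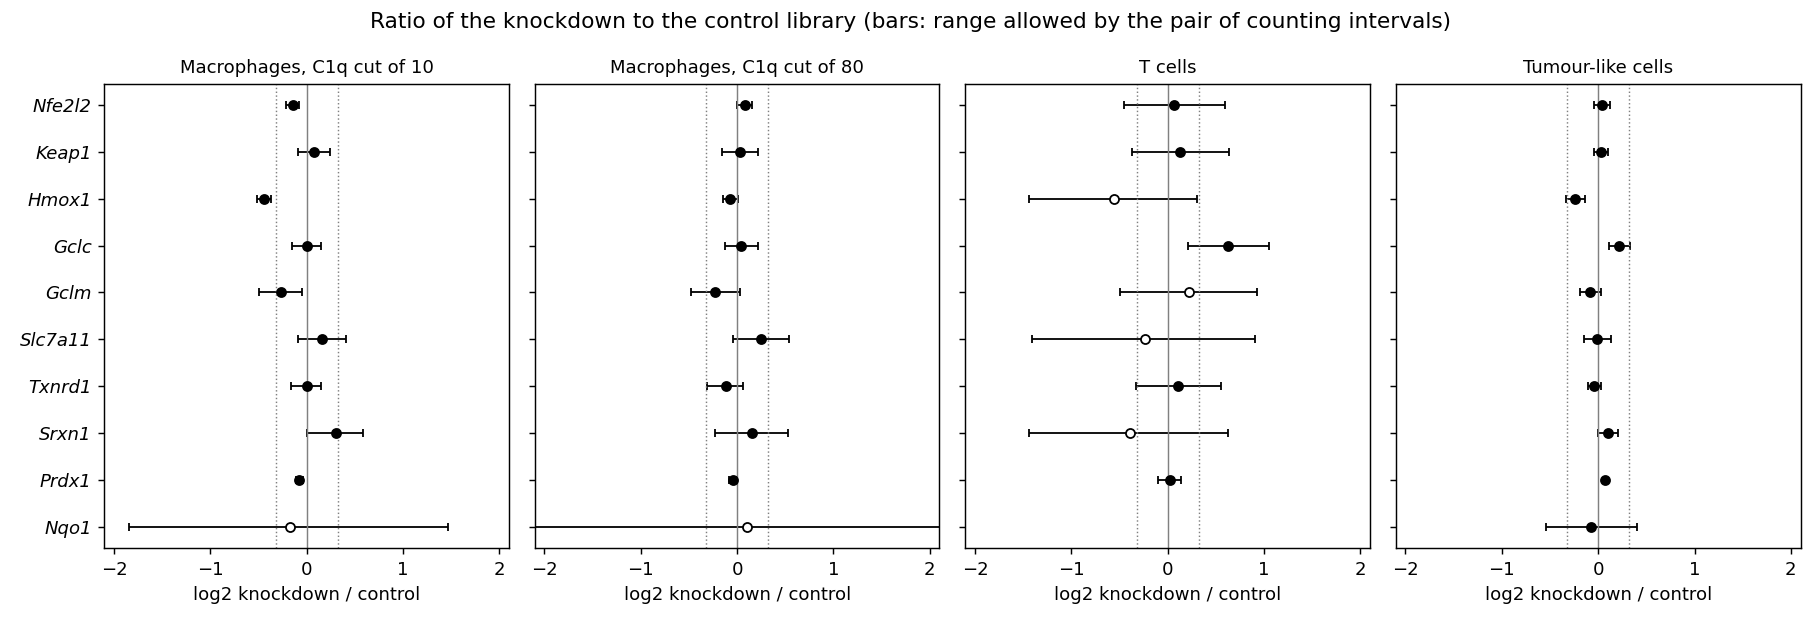
Log2 ratio of knockdown over control (horizontal axes) for each gene in macrophages by the rule, in C1q-rich macrophages, in T cells and in tumour-like cells; bars are the range the pair of 95% intervals allows, dotted lines mark log2 ratios of -0.32 and 0.32, open points have fewer than 100 UMIs in both libraries, and Nqo1 is not drawn in T cells, where it was at 0 in the knockdown tumour. Hmox1 lay past the dotted line in macrophages by the rule (-0.44) and not in C1q-rich cells (-0.07), Gclc lay past it in T cells (0.63), and no gene did in tumour-like cells.

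The measured levels of Prdx1 and Txnrd1 were close between the libraries in macrophages and tumour-like cells, while Srxn1 differed more in macrophages by the rule. Prdx1 encodes a peroxiredoxin that destroys hydrogen peroxide, Srxn1 the sulfiredoxin that repairs peroxiredoxins, and Txnrd1 the reductase that keeps thioredoxin active. In macrophages Prdx1 was at 1457 CPM (1441 to 1472) for the control and 1383 CPM (1367 to 1399) in the knockdown tumour, a log2 ratio of -0.08 (-0.11 to -0.04), and in C1q-rich cells it was at 1374 and 1335 CPM. Tumour-like RNA scaled to the Hmga2 found in macrophages by the rule came to 13.0% of their Prdx1 in the control and 42.0% in the knockdown tumour, and in C1q-rich cells to 5.86% and 10.8%. For Txnrd1 those shares were 14.5% and 41.0% by the rule and 6.33% and 11.4% in C1q-rich cells. For Srxn1 they were 24.99% and 63.6%, and 13.1% and 21.7%. Of the other members in macrophages by the rule, they were 16.6% and 46.7% for Keap1, 10.9% and 36.4% for Gclm, 10.6% and 27.4% for Slc7a11, 5.54% and 18.8% for Gclc, 2.13% and 7.03% for Nfe2l2 and 1.44% and 4.81% for Hmox1. The levels printed here include that share, which is an estimate from Hmga2 alone and counts only the RNA added. Because CPM is taken over all UMIs, added RNA also lowers genes higher in macrophages, such as Hmox1 and Nfe2l2. That part was not estimated. In tumour-like cells Prdx1 was at 1417 CPM (1409 to 1424) and 1491 CPM (1483 to 1499), a log2 ratio of 0.07 (0.06 to 0.09). T cells had less Prdx1, at 885 and 899 CPM, and Cd3-rich T cells 635 and 569 CPM. Scaled macrophage and tumour-like RNA came to 91.8% and 66.2% of the Prdx1 in T cells by the rule. For Txnrd1 there it came to 59.1% and 37.0%. The UMIs of Prdx1 were spread more evenly over cells than those of Hmox1: the top 10% of cells held 38.0% and 39.99% of them in C1q-rich macrophages and 27.8% and 29.0% in tumour-like cells. The Prdx1 count per tumour-like cell had a median of 23 in the control and 19 in the knockdown tumour.

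Srxn1 was the member most shifted towards tumour-like cells among the 9 measured well in both classes. It was at 30.0 CPM (29.0 to 31.1) and 32.3 CPM (31.1 to 33.5) in tumour-like cells and at 13.0 CPM (11.5 to 14.7) and 14.4 CPM (12.5 to 16.5) in C1q-rich macrophages, log2 ratios of -1.21 (-1.44 to -0.98) and -1.16 (-1.42 to -0.91) for macrophages over tumour-like cells. Cd3-rich T cells had 5 and 9 UMIs, or 2.73 and 6.44 CPM. By the rule macrophages had 16.1 and 19.8 CPM, and the log2 ratio between libraries of 0.30 (0.00 to 0.59) was 0.15 (-0.23 to 0.53) in C1q-rich cells. Txnrd1 differed little between classes, at 62.4 and 62.3 CPM in macrophages by the rule, 65.4 and 70.6 CPM in T cells and 67.5 and 65.5 CPM in tumour-like cells. C1q-rich macrophages, at 60.5 and 55.5 CPM, lay below tumour-like cells, with log2 ratios of -0.16 (-0.27 to -0.04) and -0.24 (-0.38 to -0.10). Cd3-rich T cells had 67.1 and 59.4 CPM of Txnrd1, and their ranges against tumour-like cells held 0 in both libraries.

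Nqo1, which encodes the quinone reductase often used as the reference NRF2 target, was barely detected. Tumour-like cells had 169 and 136 UMIs, or 1.64 CPM (1.40 to 1.91) and 1.56 CPM (1.31 to 1.85). Macrophages had 15 and 12 UMIs, or 0.659 and 0.586 CPM, C1q-rich macrophages 0.396 and 0.424 CPM, and T cells 5 and 0 UMIs. Tumour-like RNA scaled to Hmga2 would give 33.4% and 104% of the Nqo1 in macrophages by the rule and 23.5% and 35.7% in C1q-rich cells. The Poisson interval for the 0 in T cells reaches 1.70 CPM, and the limit of 3 counts that a count of 0 allows is 1.38 CPM. Tumour-like cells accounted for 81.6% and 85.5% of the Nqo1 UMIs in kept cells, and the depth did not resolve a difference between the libraries (log2 ratio -0.07, -0.54 to 0.40, in tumour-like cells).

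In tumour-like cells the members lay close to each other in the 2 libraries. None of the 10 members passed the limit, against 6.25% of 12344 genes higher and 1.52% lower, and their median log2 ratio was 0.01, beside 0.04 over all genes. The 2 members farthest from 0 were Hmox1, at 38.6 CPM (37.4 to 39.8) and 32.7 CPM (31.5 to 34.0), with a log2 ratio of -0.24 (-0.33 to -0.14), and Gclc, at 26.9 CPM (25.9 to 27.9) and 31.3 CPM (30.2 to 32.5), with 0.22 (0.11 to 0.33). The range for Slc7a11 was -0.15 to 0.13 and that for Txnrd1 -0.11 to 0.03, so differences as large as the limit lie outside both.

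Some members differed more between states of tumour-like cells than between the libraries. Cycling cells, with at least 2 UMIs of Top2a and Mki67, had more Txnrd1 than the others, at 78.7 against 53.7 CPM in the control and 73.8 against 55.4 CPM in the knockdown tumour, log2 ratios of 0.55 (0.45 to 0.65) and 0.41 (0.31 to 0.52). They had less Hmox1, at 32.4 against 46.1 CPM and 25.3 against 41.7 CPM, log2 ratios of -0.51 (-0.64 to -0.38) and -0.72 (-0.87 to -0.57). They also had less Slc7a11, with -0.52 and -0.44. Cells with at least 10 UMIs of Col1a1 and Col3a1 per 10000 showed the reverse for Txnrd1, at 55.8 against 75.6 CPM and 57.1 against 73.7 CPM, and more Slc7a11, at 22.9 against 14.5 CPM and 21.4 against 14.3 CPM. Depth moved with these splits: medians were 25044 and 19379 UMIs in cycling cells and 15452 and 12347 UMIs in the others. They were 15658 and 13072.5 UMIs in the cells high in Col1a1 and Col3a1 and 22256 and 17570 UMIs in the rest. Scrublet's own threshold marked 15.7% of cycling and 4.94% of other tumour-like cells in the knockdown tumour. The parts of depth and of doublets were not tested. The Krt16 cells, where Gfpt2 was concentrated, had Slc7a11 at 24.0 CPM (19.7 to 29.0) in the control tumour and at 58.2 CPM (44.9 to 74.1) from 65 UMIs in 50 cells of the knockdown tumour, a log2 ratio of 1.27 (0.63 to 1.91). Without them Slc7a11 was at 17.7 and 17.3 CPM. Nqo1 was also higher in the Krt16 cells of the control tumour than in the rest, at 4.90 against 1.49 CPM, a log2 ratio of 1.71 (0.81 to 2.56), and the 3 Nqo1 UMIs of the knockdown Krt16 cells did not resolve it there.

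In T cells 1 of the 5 members with at least 100 UMIs passed the limit, and it was Gclc, against 3.14% of 4866 genes higher and 1.93% lower. Gclc was at 59.3 CPM (50.9 to 68.7) from 177 UMIs in the control and at 91.8 CPM (79.5 to 105) from 199 UMIs in the knockdown tumour, a log2 ratio of 0.63 (0.21 to 1.05). In Cd3-rich T cells it was at 78.0 CPM (65.8 to 91.9) and 124 CPM (106 to 144), a log2 ratio of 0.67 (0.21 to 1.13), against 4.05% of 3211 genes higher and 1.59% lower. Scaled macrophage and tumour-like RNA came to 3.29% and 1.82% of those levels. The share of T cells with a Gclc UMI differed less, at 21.5% (18.4 to 24.9) and 24.2% (20.7 to 28.1), and after thinning it was 13.8% (10.8 to 17.2) and 14.9% (11.4 to 19.1), where the intervals overlap. With every cell thinned to 2000 UMIs the log2 ratio was 0.42 (-0.28 to 1.11), which no longer passes the limit. Slc7a11, by contrast, had 4 and 3 UMIs in Cd3-rich T cells, or 2.18 and 2.15 CPM, of which scaled RNA of the other classes would give 63.0% and 52.1%.

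Genes whose counts followed a member from cell to cell were sought in the class with the highest mean level of that member over both libraries, by Pearson's r of thinned log counts in both libraries. The cells of a library share its preparation, and r is a description only. In macrophages Hmox1 went with Ftl1 (r of 0.45 in the control and 0.40 in the knockdown tumour), Lgals3 (0.38 and 0.39) and Fth1 (0.39 and 0.38), over 3304 and 3455 cells, and in C1q-rich cells the same 3 genes led with 0.35 to 0.40. Ftl1 and Fth1 encode the ferritin chains that store iron, and Lgals3 encodes galectin-3. Hmox1 with Prdx1 gave 0.30 and 0.27 in C1q-rich cells, with Gclm 0.17 and 0.13, and with Nfe2l2 -0.06 and -0.04. In tumour-like cells Prdx1 went with Ppia (0.29 and 0.33), Eif5a (0.29 and 0.29) and Nme1 (0.24 and 0.28). These 3 encode a peptidyl-prolyl isomerase, a translation factor and a nucleoside diphosphate kinase. Nfe2l2, found in more of the thinned macrophages than Hmox1, gave lower values: with Fos r was 0.17 and 0.22, with Cxcl2 0.16 and 0.15 and with Junb 0.15 and 0.21, and in C1q-rich cells 0.15 and 0.16 with Fos and 0.14 and 0.16 with Junb. Fos and Junb encode AP-1 subunits and Cxcl2 a chemokine. Gclm in macrophages gave 0.23 and 0.12 with Hmox1 and 0.19 and 0.14 with Prdx1. The best values of the other 6 members were at most 0.19.

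The lists that follow are read against all genes with at least 100 UMIs. In macrophages by the rule 19.4% of these passed the limit higher and 4.63% lower, with a median log2 ratio of 0.09. In C1q-rich cells the shares were 6.24% and 4.14% with a median of 0.01, in tumour-like cells 6.25% and 1.52% with 0.04, and in T cells 3.14% and 1.93% with 0.02. Of 25 wider NRF2 targets with at least 100 UMIs in macrophages, 4 were higher and 3 lower past the limit, with a median log2 ratio of -0.07. The 2 highest, Me1 (malic enzyme, 6.59 and 17.4 CPM) and Akr1b8 (an aldo-keto reductase, 9.13 and 22.2 CPM), were far higher in tumour-like cells, at 55.0 and 54.2 CPM and at 81.8 and 83.5 CPM. The 2 lowest were Ephx1, at 5.58 and 2.64 CPM, and Mgst1, with log2 ratios of -1.08 and -0.47. Ephx1 was at 0.0486 and 0.0804 CPM in tumour-like cells. In C1q-rich macrophages 0 of 23 were higher and 2 were lower, Gsr (glutathione reductase, 22.1 and 17.0 CPM) and Ephx1 (an epoxide hydrolase, log2 ratio -0.85). In tumour-like cells 1 of 24 passed, Mgst1 (a microsomal glutathione transferase), higher at 5.11 and 7.36 CPM. Mgst1 was at 92.1 and 66.3 CPM in macrophages, and the 12 macrophage markers summed to 569 and 693 CPM in tumour-like cells. The part of macrophage RNA in this and the other calls in tumour-like cells was not tested.

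Few partners of NRF2 and few glutathione, thioredoxin and haem genes passed the limit. Of 14 regulators and family members in macrophages only Cul3, which encodes the scaffold of the ligase that KEAP1 serves, was higher past the limit (65.4 and 86.9 CPM, a log2 ratio of 0.41), and in C1q-rich cells none was (Cul3 59.8 and 65.0 CPM). In tumour-like cells Mafk, a small MAF partner, was higher at 5.84 and 8.09 CPM, alone among 13. Of 17 glutathione and thioredoxin genes none passed in macrophages by the rule, Gsr and Prdx4 (131 and 105 CPM) were lower in C1q-rich cells, and Glrx was higher in tumour-like cells (8.51 and 11.1 CPM, against 105 and 91.2 CPM in macrophages). Of 11 haem and iron genes in macrophages Tfrc, the transferrin receptor, was higher (21.3 and 37.5 CPM, a log2 ratio of 0.82) and Alas1, the first enzyme of haem synthesis, lower (55.5 and 42.2 CPM, -0.40). In C1q-rich cells Tfrc alone passed, at 16.8 and 21.6 CPM. Tfrc was at 78.7 and 91.9 CPM in tumour-like cells, and in C1q-rich cells Hmga2 was at 12.5 and 21.1 CPM and the other 9 LLC markers summed to 157 and 149 CPM. The part of tumour cell RNA was not tested. In tumour-like cells 0 of 10 passed.

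Genes of the ATF4 response to amino acid shortage, which shares Slc7a11 with NRF2, gave different counts by the choice of cells. In macrophages by the rule 5 of 10 were higher and 0 lower, with a median log2 ratio of 0.34, led by Asns (asparagine synthetase, 19.5 and 44.3 CPM) and Trib3 (9.84 and 19.1 CPM). These genes were at 179 and 167 CPM (Asns) and 73.9 and 65.7 CPM (Trib3) in tumour-like cells. In C1q-rich macrophages 0 of 10 were higher and 2 lower, with a median of -0.03, and Mthfd2 (a mitochondrial folate enzyme) was lowest at 44.8 and 30.3 CPM. In tumour-like cells 1 of 12 passed, Phgdh, the first enzyme of serine synthesis, which was lower at 594 and 428 CPM. Of 14 other antioxidant genes in macrophages 2 were higher, Gpx8 and Nos2, and 5 lower, with Gpx3 (-0.92) and Cyba (-0.49) lowest. In C1q-rich cells 1 was higher and 1 lower, Gpx3. Gpx8, a peroxidase, was the higher one, at 4.06 and 7.56 CPM, against 114 and 147 CPM in tumour-like cells. In tumour-like cells 3 of 13 were higher and 0 lower, among them Cyba (23.0 and 35.9 CPM), a subunit of the NADPH oxidase that was at 2180 and 1549 CPM in macrophages. In T cells, where 7 to 14 genes of a list had enough UMIs, 1 or none passed in each direction in every one of these 6 lists. In these T cells Hmga2 was at 124 and 85.3 CPM and the other 9 LLC markers summed to 254 and 267 CPM, and their part was not tested. Fth1, which is in 2 of the lists, was lower at 3654 and 2708 CPM, but in Cd3-rich T cells it was at 2585 and 2517 CPM, a log2 ratio of -0.04 (-0.13 to 0.05). Phgdh was lower at 369 and 221 CPM, and in Cd3-rich cells at 159 and 88.7 CPM, a log2 ratio of -0.84 (-1.27 to -0.42). Bach2, a repressor related to BACH1, was higher, with 0.68 by the rule and 0.73 (0.17 to 1.29) in Cd3-rich cells, at 51.8 and 85.8 CPM. The stress factor Atf3 gave 0.76 by the rule and 0.87 (0.52 to 1.22) in Cd3-rich cells, at 124 and 226 CPM. Gpx8 was higher by the rule, at 31.2 and 47.0 CPM, and had 10 and 13 UMIs in Cd3-rich cells, where the depth did not resolve it.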

How the data were processed

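Per the file headers, the deposited matrices hold counts of UMIs as whole numbers for each gene and cell, made with Cell Ranger 6.1.0, without normalisation; the submitters' processing notes name Cell Ranger 3.1.0. The genome build, the annotation and any later filter on cells are not given in the sources used here, so a gene that shares reads with near-identical copies, such as Prdx1, Ftl1 or Fth1, is uncertain. The members and all gene lists were chosen with earlier results of these data known. Cells with under 200 genes or over 20% mitochondrial UMIs were left out, and the highest Scrublet scores were removed at 0.8% of cells per 1000 cells (1148 control and 1322 knockdown). UMIs were summed per library and class and given as CPM, with intervals at 95%. A gene counted as past the limit (or past 1.5-fold) when its log2 ratio was at least 0.32 in size (or its fold that large), the range left out 0 and it had at least 100 UMIs in 1 library; no test was possible with 1 library per group, and the method was tested on simulated data. Genes named were drawn from the members, Gfpt2, the 2 highest and 2 lowest of each list in macrophages and in tumour-like cells, and the 3 genes most alike to each member; genes named for C1q-rich cells and for T cells in the further lists, the C1q ranges and the C1q-rich and Cd3-rich limits were chosen after the data were seen. Python 3.11.15, scanpy 1.11.5, scipy 1.17.1 and edgeR 4.0.16 (TMM factors only) were used. Other doublet, filter, class, scaling and depth settings were tried. A division of the macrophages by 1 further gene is not reported here.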

Additional observations from a re-analysis of the deposited data

Results flagged for a closer look

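Prdx1 lay on opposite sides of 0 in the 2 largest classes: its log2 ratio of knockdown over control was -0.08 in macrophages and 0.07 in tumour-like cells. The difference between the classes was not tested. In C1q-rich macrophages the value was -0.04 (-0.08 to 0.00), and in tumour-like cells it was 0.01 with TMM and with median of ratios scaling.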

How the results depend on the processing

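No paired analysis was possible because each group had 1 library and the labels carry no replicate numbers, and no library could be left out. Of 319 values for single members under other settings, 289 stayed within counting error of the reported value. The sign was opposite in 44 of the 319, 27 of them in T cells; in 2 of the 44, both Nfe2l2 in macrophages, the reported range had left out 0. Of 66 medians and counts, 56 held and 10 moved. Scaling by TMM or by median of ratios shifted all macrophage ratios by -0.14 and -0.15, which moved the median over all 10 members there, Nqo1 included, from -0.04 to -0.18 and -0.19 and the count past the limit from 1 to 2 (Gclm joined Hmox1). That count was 0 with Scrublet's own threshold, with the C1q limit of 80 and with a fold of 1.5. Hmox1 in macrophages lay between -0.59 with median of ratios scaling and -0.07 with the C1q limit of 80. With Scrublet's own threshold, which marked a larger share of knockdown than of control barcodes, Srxn1 in macrophages was 0.00 and Nfe2l2 there was 0.07. With the C1q limit of 80, Nfe2l2 in macrophages was 0.08. The cause was not tested. In T cells the count was 2 without doublet removal and with cells of more than 1 class kept (Hmox1, lower, joined Gclc), and 0 with each cell thinned, where Gclc was 0.42 (-0.28 to 1.11) from fewer UMIs. Depth limits Nqo1 in every class and most members in T cells.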

Other observations

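Kept cells in none of the 3 classes, 1048 in the control and 1185 in the knockdown tumour, had Hmox1 at 80.6 CPM (74.8 to 86.7) and 31.95 CPM (28.1 to 36.2), a log2 ratio of -1.33 (-1.63 to -1.05). Lyz2 in the same cells was at 944 and 371 CPM and Hmga2 at 230 and 257 CPM. Nfe2l2 there was at 93.8 and 70.7 CPM.

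C1q-rich macrophages with at least 2 UMIs of the interferon-induced genes Ifit1, Ifit2 and Ifit3 numbered 1133 in the control and 1497 in the knockdown tumour. They had less Txnrd1 than the other C1q-rich macrophages, at 49.4 against 67.2 CPM and 47.4 against 65.0 CPM, log2 ratios of -0.44 (-0.69 to -0.20) and -0.45 (-0.74 to -0.16). They had more Gclc, at 72.7 against 60.6 CPM and 79.3 against 53.2 CPM, log2 ratios of 0.26 (0.04 to 0.49) and 0.58 (0.31 to 0.85). Hmox1 was at 309 against 349 CPM and 308 against 330.2 CPM.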
